A study of Homo sapiens with 16 samples.

Results

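Epithelial and mesenchymal identity genes were examined in the pancreatic ductal adenocarcinoma cell lines MiaPaCa2 and PANC1. The set holds 41 of the 63677 genes counted, taken by name as junction, keratin, mucin, EMT (epithelial-mesenchymal transition) regulator and mesenchymal genes. No cutoff on a measured value was used, but the members were chosen with earlier results of these data known. Shares of members set beside those of all genes are therefore descriptive. Each line was left as a control or exposed for 24 h to 40 nM gemcitabine, to 50 uM genistein, or to both drugs (co-treatment), and each of the 4 groups per line had 2 replicates, so that 16 RNA-Seq libraries were compared. Gemcitabine is a nucleoside analogue that blocks DNA synthesis, and genistein is a soy isoflavone that binds estrogen receptors. Each line is a tumor-derived culture grown alone in DMEM with serum. The methods call the 2 replicates of a condition biological, without saying whether they were separate cultures, and p-values measure the spread between these libraries.

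Epithelial cells hold to one another through adherens junctions built on E-cadherin (CDH1), tight junctions built on claudins and occludin, and desmosomes anchored to keratin filaments. In EMT, transcription factors of the ZEB, SNAI and TWIST families repress such genes, partly through E-box motifs in their promoters, while vimentin (VIM), N-cadherin (CDH2), fibronectin (FN1) and SPARC are characteristic of mesenchymal cells. ESRP splicing regulators, the grainyhead factors GRHL1 and GRHL2, OVOL1 and the ETS factors ELF3 and EHF maintain epithelial programs. Pancreatic carcinoma lines are known to differ in how far they keep each program.

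Levels are given as CPM, normalised read counts scaled to library size after TMM normalisation over the 16 libraries, and as FPKM, the deposited value per kilobase of transcript, where genes are compared with each other. A gene was called changed when the Benjamini-Hochberg adjusted p of limma-voom was at most 0.05, the absolute log2 fold change at least 0.4 and the mean FPKM above 1 in the treated group (in either control group for the lines). Library totals lay between 12943482 and 31991860 counts. The 5 acinar and the 4 endocrine markers stood at 3 counts or fewer in every library of both lines. Of 5 fibroblast markers, all stood at 3 counts or fewer in MiaPaCa2, and DCN, LUM and PDGFRA did in PANC1, where the summed level of the list was 45.0 to 57.5 CPM. The summed level of the duct markers, which include the members KRT7 and KRT19, was 82.3 to 292 CPM in MiaPaCa2 and 330 to 964 CPM in PANC1. The defining leukocyte genes PTPRC and CD3E were at 3 counts or fewer in both lines, with a summed list level of at most 6.65 CPM, and the endothelial list reached at most 8.27 CPM. In bulk RNA, fewer cells of a type and less RNA per cell cannot be told apart.

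Untreated PANC1 carried an epithelial junction program together with mesenchymal genes. Untreated MiaPaCa2 had next to no reads of CDH1, CDH2 or CDH3. It kept most keratins, claudins 1 and 4, OCLN, TJP1, the desmosomal genes and vimentin. Above 1 FPKM were 20 members in the MiaPaCa2 controls and 29 in the PANC1 controls. Both lines expressed 18 of them, EHF and TJP3 passed 1 FPKM in MiaPaCa2 alone, and 11 did so in PANC1 alone (CDH1, CDH2, CDH3, EPCAM, CLDN3, CLDN7, KRT7, ESRP2, SPINT1, SPARC and TWIST2). The other 10 were at or below 1 FPKM in both. Of these, TWIST1 had no count in any of the 16 libraries and RAB25 never more than 2 counts, while CRB3, GRHL2 and OVOL1 reached at most 9, 5 and 8 counts, so these 5 were in no test.

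**Figure D1:**
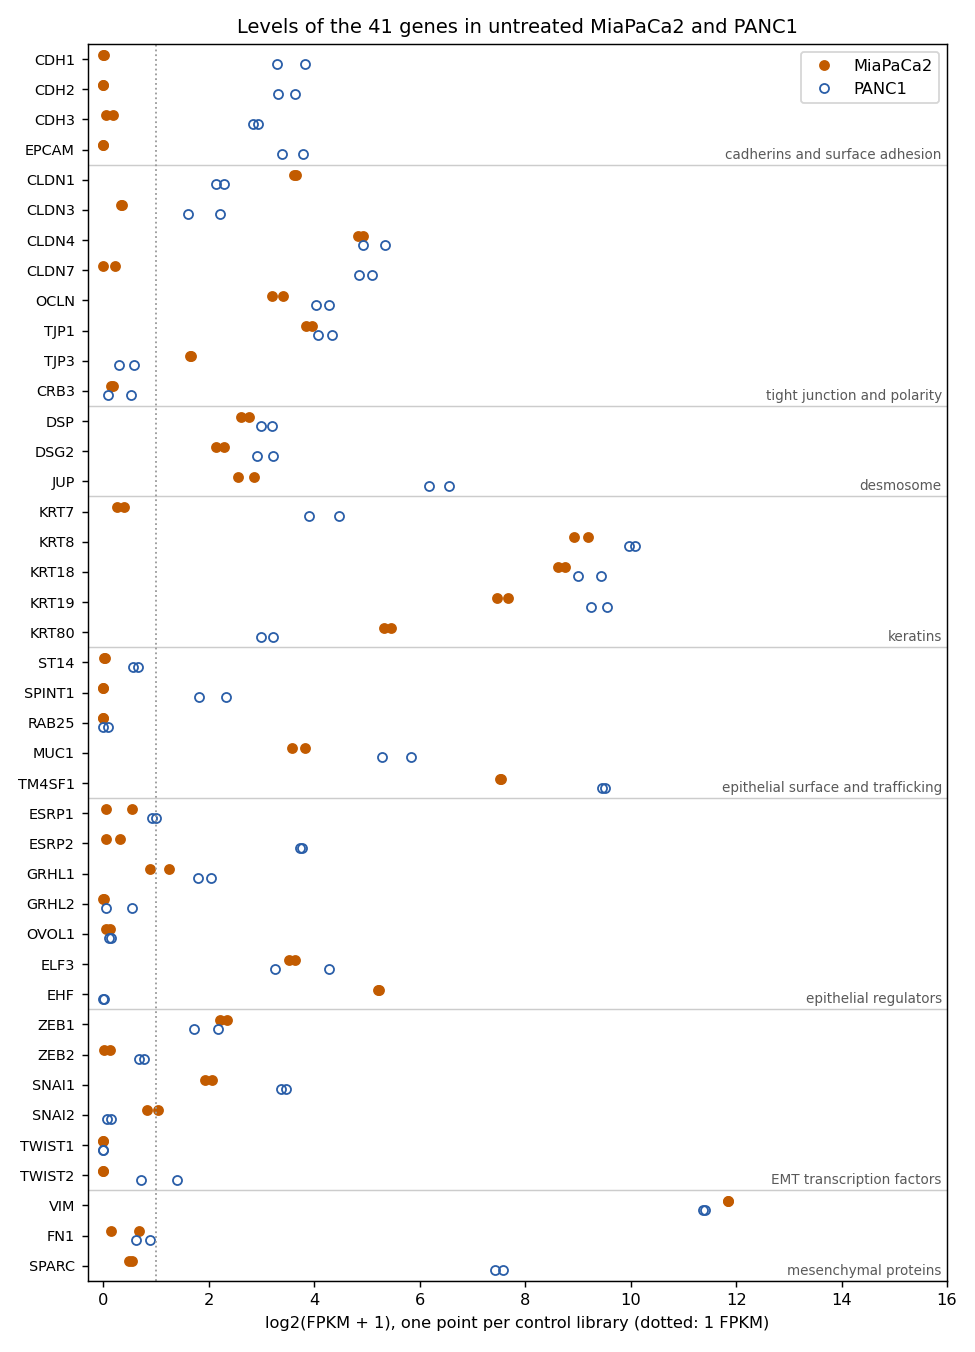
Level of each of the 41 genes in the control libraries, as log2(FPKM + 1) on the horizontal axis with 1 point per library, filled for MiaPaCa2 and open for PANC1, grouped by role. VIM and KRT8 lead in both lines, at mean levels of 3683 and 533 FPKM in MiaPaCa2 and 2684 and 1038 FPKM in PANC1, while the 4 genes of the cadherin group sit near 0 in MiaPaCa2 only.

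On the FPKM scale VIM, which encodes the main intermediate filament of mesenchymal cells, was the highest member in both lines, at 3683 ± 29.9 FPKM (SD, n = 2) in MiaPaCa2 and 2684 ± 72.1 FPKM in PANC1. KRT8 followed in both, at 533 ± 70.5 and 1038 ± 54.8 FPKM. The next 3 places were held in either line by KRT18, KRT19 and TM4SF1. In PANC1 the levels of TM4SF1 (713 ± 16.7 FPKM), KRT19 (679 ± 98.8 FPKM) and KRT18 (601 ± 129 FPKM) did not differ beyond their spread, nor did those of KRT19 (190 ± 19.7 FPKM) and TM4SF1 (185 ± 0.694 FPKM) in MiaPaCa2.

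Between the control groups, 36 members were tested and 27 were called, 22 higher and 5 lower in PANC1, beside 52.2% of all genes tested (27.9% higher and 24.3% lower). The median log2 difference was 1.55 over the tested members and 0.06 over all genes. These counts carry little weight as a summary, since 13 of the tested members had nearly no reads in one line and could pass the filter on low counts through the other line alone. For those, the ratio of summed counts is given with its exact 95% interval, or, where a line had no count, a lower bound against 3 counts per library. Intervals and bounds cover counting error only.

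The cadherins CDH1, CDH2 and CDH3 and the adhesion molecule EPCAM were all higher in PANC1. CDH1 was at 24.2 and 19.8 CPM in PANC1 and at 0.0608 and 0 CPM in MiaPaCa2, where a single read was counted, a ratio of 635 (113.7 to 25091). CDH2, the cadherin that often replaces CDH1 in EMT, was at 42.3 and 44.9 CPM in PANC1 and uncounted in both MiaPaCa2 controls, at least 211-fold higher in PANC1. PANC1 thus held both cadherins, and MiaPaCa2 neither. EPCAM was at 10.6 and 13.9 CPM in PANC1 and had no count in any of the 8 MiaPaCa2 libraries, at least 59.3-fold higher. P-cadherin (CDH3) had a ratio of 91.3 (35.5 to 336).

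Among tight junction genes the claudins split between the lines. CLDN7 was at 27.8 and 23.1 CPM in PANC1 and 0.122 and 0 CPM in MiaPaCa2, a ratio of 367 (101.4 to 3034), and CLDN3 had a ratio of 85.2 (15.1 to 3389). CLDN1 ran the other way, with 49.5 and 48.0 CPM in MiaPaCa2 and 12.8 and 15.5 CPM in PANC1 (log2 difference -1.78 ± 0.15 SE, adjusted p = 2.1e-07). TJP3, a junctional scaffold, was also higher in MiaPaCa2, at 1.89 and 1.76 CPM against 0.752 and 0.688 CPM (-1.34 ± 0.29, adjusted p = 0.00126). Occludin (OCLN) was 1.95-fold higher in PANC1. CLDN4 was not called (0.20 ± 0.21), and its libraries overlapped between the lines.

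The desmosomal genes were all higher in PANC1, where plakoglobin (JUP), which joins cadherins to the cytoskeleton in both desmosomes and adherens junctions, differed by 14.1-fold (log2 difference 3.82 ± 0.24). DSG2, a desmosomal cadherin, differed by 1.93-fold. Desmoplakin (DSP), the link to keratins, was the smallest called difference, with 82.0 and 89.5 CPM in PANC1 and 66.5 and 60.7 CPM in MiaPaCa2 (0.43 ± 0.10, adjusted p = 0.00193). It fell below the fold threshold without MiaPaCa2 control replicate 2 (0.37) or PANC1 control replicate 2 (0.39).

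Of the keratins, KRT19, a duct-type keratin, was at 832 and 611 CPM in PANC1 and 176 and 205 CPM in MiaPaCa2 (1.90 ± 0.18, adjusted p = 9.0e-07). KRT7 had a ratio of 34.8 (13.4 to 129), and the paired simple-epithelium keratins KRT8 and KRT18 were 2.45-fold and 1.49-fold higher in PANC1. KRT80 was the exception, with 178 and 195 CPM in MiaPaCa2 and 30.3 and 23.4 CPM in PANC1 (-2.82 ± 0.13, adjusted p = 9.0e-10). KRT8 and KRT18 overlap on opposite strands and have many pseudogene copies, so their counts are uncertain. The call for KRT18 was lost without MiaPaCa2 control replicate 1 (0.45, adjusted p = 0.0959) or PANC1 control replicate 1 (0.31, adjusted p = 0.0960).

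Surface genes were higher in PANC1. MUC1, a transmembrane mucin of the apical surface, was at 32.4 and 26.9 CPM in PANC1 and 10.2 and 11.7 CPM in MiaPaCa2 (1.43 ± 0.14, adjusted p = 1.3e-06). The tetraspanin-like TM4SF1 was at 1173 and 1189 CPM against 326 and 315 CPM (1.88 ± 0.07, adjusted p = 1.5e-10). SPINT1, an inhibitor of epithelial serine proteases, was uncounted in the MiaPaCa2 controls and at least 27.2-fold higher in PANC1, and its partner protease ST14 had a ratio of 30.1 (8.13 to 252) at levels below 1 FPKM.

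Regulators did not follow a single direction. The splicing regulator ESRP2 was at 36.2 and 28.5 CPM in PANC1 and 0.0608 and 0.0766 CPM in MiaPaCa2, a ratio of 464 (128.2 to 3834), and GRHL1 was 2.55-fold higher in PANC1. EHF was the reverse, at 130 and 123 CPM in MiaPaCa2 with a single read in the PANC1 controls, a ratio of 6589 (1181.9 to 260321). ELF3 was not called (0.38 ± 0.27), and its libraries overlapped. The EMT factor SNAI1 was 3.17-fold higher in PANC1. ZEB1, a repressor of CDH1, was at 11.4 and 18.5 CPM in PANC1 and 20.5 and 20.5 CPM in MiaPaCa2, a difference that did not pass (-0.46 ± 0.26, adjusted p = 0.143). ZEB2 had a ratio of 19.0 (7.26 to 70.9), below 1 FPKM in both lines, and TWIST2 was at least 6.93-fold higher in PANC1. SNAI2 passed the adjusted p in the other direction (-3.59 ± 0.44, adjusted p = 9.5e-06) but not the FPKM criterion.

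Of the mesenchymal proteins, SPARC, a secreted matrix glycoprotein, was at 192 and 174 CPM in PANC1 and 0.608 and 0.460 CPM in MiaPaCa2 (8.32 ± 0.26, adjusted p = 3.1e-11). VIM was at 6048 and 5344 CPM in PANC1 and 7989 and 7921 CPM in MiaPaCa2 (-0.48 ± 0.07, adjusted p = 5.2e-05), and fell below the fold threshold without PANC1 control replicate 2 (-0.37). FN1 was below 1 FPKM in both controls and not called.

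Promoter windows were read because several members were near 0 in MiaPaCa2 together. RefSeq windows on GRCh38.p14, from 250 bases before to 50 after a gene start, matched 26 of the 41 members by symbol, with 43 windows. The E-box searched was CACCTG or its reverse complement CAGGTG, which covers both strands. It occurred in 17 of the 43 member windows (14 of 26 genes) and in 20.6% of all 35116 windows. With CDH2 placed among the mesenchymal members, 13 of 19 epithelial members and 1 of 7 EMT or mesenchymal members (ZEB1) had a match. These are counts of genes, some with several windows, whereas 20.6% is a share of windows. No share of all genes is given, so the gene counts have no background beside them. The grainyhead motif AACCGGTT was in no member window and in 0.134% of all windows. Below are windows of 2 genes near 0 in MiaPaCa2 (CLDN7 and SPINT1) and of 2 whose response to gemcitabine differed between the lines (JUP and TJP3), with E-boxes in capitals. Each is the window of its gene that held a match. Of the other members near 0 in the MiaPaCa2 controls alone, CLDN3 had a match, and CDH2, TWIST2 and ZEB2 had none. CDH1, CDH3, EPCAM, ESRP2, KRT7 and ST14 had no window. Matches also lay in genes above 1 FPKM in the MiaPaCa2 controls, among them DSP, OCLN, MUC1, ELF3, TJP1 and DSG2. A match is only a run of letters, and binding was not measured. CLDN7 lies at chr17:7262429-7262728 on the minus strand, SPINT1 at chr15:40844227-40844526 on the plus strand, JUP at chr17:41785927-41786226 on the minus strand and TJP3 at chr19:3721487-3721786 on the plus strand.
CLDN7: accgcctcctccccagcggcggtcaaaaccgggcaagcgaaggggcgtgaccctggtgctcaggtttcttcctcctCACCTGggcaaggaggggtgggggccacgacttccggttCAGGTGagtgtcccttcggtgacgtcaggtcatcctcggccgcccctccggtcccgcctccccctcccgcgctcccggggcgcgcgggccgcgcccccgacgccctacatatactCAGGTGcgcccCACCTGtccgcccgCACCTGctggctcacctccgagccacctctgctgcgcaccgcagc
SPINT1: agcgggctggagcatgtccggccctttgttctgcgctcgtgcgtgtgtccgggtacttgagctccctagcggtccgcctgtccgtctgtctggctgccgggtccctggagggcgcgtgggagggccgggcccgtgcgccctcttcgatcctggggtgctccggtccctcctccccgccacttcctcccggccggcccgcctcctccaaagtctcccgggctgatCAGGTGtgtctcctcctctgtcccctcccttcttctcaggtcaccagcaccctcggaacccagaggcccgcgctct
JUP: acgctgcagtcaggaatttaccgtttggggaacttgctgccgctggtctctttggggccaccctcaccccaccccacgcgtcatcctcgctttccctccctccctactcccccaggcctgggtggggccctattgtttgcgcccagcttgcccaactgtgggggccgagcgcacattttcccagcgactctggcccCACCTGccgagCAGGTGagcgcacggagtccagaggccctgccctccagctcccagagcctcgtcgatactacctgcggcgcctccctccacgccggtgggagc
TJP3: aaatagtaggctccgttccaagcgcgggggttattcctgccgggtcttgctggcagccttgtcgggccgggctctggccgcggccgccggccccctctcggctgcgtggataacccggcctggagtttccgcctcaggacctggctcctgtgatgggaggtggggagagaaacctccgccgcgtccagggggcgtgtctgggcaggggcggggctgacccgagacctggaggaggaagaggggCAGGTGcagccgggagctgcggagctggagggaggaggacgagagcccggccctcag
The CLDN7 window held 5 E-boxes, JUP 2, SPINT1 1 and TJP3 1.

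In MiaPaCa2 the calls under gemcitabine were of 3 junction genes higher, 2 keratins and 2 surface genes lower, and EMT and mesenchymal genes in both directions. Those of DSG2, GRHL1 and TM4SF1 were lost in other fits, as given below. FN1, TJP3, JUP, SNAI1, GRHL1 and DSG2 rose, and KRT19, EHF, ZEB1, KRT80, MUC1, VIM and TM4SF1 fell. These were 13 of the 22 members tested, beside 29.6% of all genes tested in this line (15.0% higher and 14.6% lower). The median log2 fold change of the tested members was -0.12, and that of all genes was -0.01.

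Of the rises, FN1, a matrix protein and a usual mesenchymal marker, was largest, from 0.730 and 0.536 CPM in the controls to 4.90 and 4.91 CPM (log2 fold change 2.83 ± 0.33 SE, adjusted p = 5.5e-05). The controls rest on 12 and 7 counts. TJP3 went from 1.89 and 1.76 CPM to 9.91 and 7.80 CPM (2.19 ± 0.25, adjusted p = 4.1e-05). JUP went from 19.6 and 25.8 CPM to 54.4 and 49.0 CPM (1.15 ± 0.16, adjusted p = 2.1e-04), and DSG2 rose by 0.46 ± 0.15. SNAI1, a zinc-finger repressor of CDH1, went from 5.35 and 6.13 CPM to 12.9 and 11.1 CPM (1.02 ± 0.19, adjusted p = 0.00117). In each of these genes every treated library lay above both controls. GC slopes (log2 per 10 points of GC) were -0.23 and -0.14 in the MiaPaCa2 controls and 0.14 and 0.05 with gemcitabine. Exonic GC was 62.2% in TJP3, 61.2% in JUP and 39.4% in DSG2. After removal of each library's GC trend all these rises were called again. The median change of the 3 desmosomal genes was 0.46 as counted and 0.82 after it.

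Among the falls, KRT19 went from 176 and 205 CPM to 75.0 and 74.2 CPM (-1.40 ± 0.13, adjusted p = 1.0e-05), and KRT80 changed by -0.90 ± 0.09. EHF, the epithelial ETS factor that PANC1 lacked, went from 130 and 123 CPM to 70.5 and 65.5 CPM (-0.95 ± 0.11, adjusted p = 5.3e-05). Both treated libraries lay below both controls for KRT19 and EHF. ZEB1 (-0.94 ± 0.20) and VIM (-0.66 ± 0.06) also fell, so that EMT and mesenchymal members stood on both sides. KRT8, KRT18, CLDN1, CLDN4, OCLN, DSP and ELF3 did not pass, with log2 fold changes between -0.24 and 0.01, and TJP1 (-0.33 ± 0.12, adjusted p = 0.0427) was below the fold threshold. The calls of DSG2 and GRHL1 depended on single libraries. DSG2 was lost without any 1 of the 4 libraries (0.37 to 0.56, adjusted p = 0.0694 to 0.167), and GRHL1 without control replicate 1 (0.46) or without gemcitabine replicate 1 (0.73) or 2 (0.79). TM4SF1 (-0.45 ± 0.08), with 40.2% GC in its exons, was not called after removal of each library's trend with GC content (-0.12) or without gemcitabine replicate 1 (-0.38). The fall of MUC1 was seen in counts, from a mean of 10.9 CPM in the controls to 6.32 CPM with gemcitabine. Its FPKM stayed within their spread, at 12.1 ± 1.49 and 10.9 ± 1.82 (SD, n = 2).

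In PANC1, most members called under gemcitabine were lower, and these were both epithelial and mesenchymal genes. No tight junction member was called lower. CDH1, CDH3, ELF3, ESRP2, KRT19, KRT80, JUP and TM4SF1 fell, together with the mesenchymal SPARC and VIM, while ZEB2, GRHL1 and CLDN1 rose. These were 13 of 35 members tested, beside 7.52% of all genes tested (4.49% higher and 3.03% lower). The median log2 fold change was -0.47 over the members and 0.03 over all genes.

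CDH1 went from 24.2 and 19.8 CPM in the controls to 7.67 and 6.58 CPM (-1.57 ± 0.18, adjusted p = 0.00402), a 2.97-fold fall. CDH3 went from 14.3 and 11.2 CPM to 5.67 and 5.06 CPM (-1.18 ± 0.20, adjusted p = 0.0146). CDH2 (-0.19 ± 0.14) and EPCAM (-0.20 ± 0.20) did not pass, so the fall in this group was called for 2 of 4 members. ELF3, an epithelial ETS factor, went from 12.3 and 7.73 CPM to 4.86 and 3.07 CPM (-1.27 ± 0.29, adjusted p = 0.0361), with treated libraries below both controls. ESRP2 changed by -0.71 ± 0.17. ESRP1 changed by -1.25 ± 0.31 (adjusted p = 0.0496) and TJP3 by -1.55 ± 0.39 (adjusted p = 0.0506), both below 1 FPKM.

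ZEB2, a repressor of epithelial genes, went from 2.41 and 2.69 CPM to 5.35 and 6.29 CPM (1.22 ± 0.21, adjusted p = 0.0158). GRHL1, an activator of desmosomal genes, went from 6.72 CPM in both controls to 12.1 and 13.0 CPM (0.94 ± 0.17, adjusted p = 0.0183). The groups did not overlap in either gene. ZEB1 (0.30 ± 0.30) and SNAI1 (0.12 ± 0.16) did not pass. SPARC went from 192 and 174 CPM to 91.6 and 95.1 CPM (-0.92 ± 0.09, adjusted p = 0.00231) and VIM changed by -0.60 ± 0.06.

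The PANC1 calls rest on few libraries. All 13 were called again after the GC trend was removed, where 17.9% of all genes were called, although control replicate 1 had a GC slope of 0.29 (log2 per 10 points of GC) and control replicate 2 of -0.07. With replicate number as a limma-voom block, ZEB2, ESRP2, KRT19, KRT80, CLDN1, JUP and ELF3 were not called (adjusted p = 0.0512 to 0.106). Without gemcitabine replicate 1, 1 member was called (VIM), without gemcitabine replicate 2, 2 members (SPARC and TM4SF1), and without control replicate 1, 5 members. CDH1 then stood at -1.67 (adjusted p = 0.0551) without gemcitabine replicate 1 and at -1.46 (adjusted p = 0.0736) without replicate 2. A group left with 1 library was assumed to vary like the others.

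The response to gemcitabine differed between the lines for 7 of 36 members tested, beside 15.3% of all genes tested, by the interaction term of a model over all 16 libraries. With limma-trend on log2(FPKM + 1) in place of the counts, only 1 of these 7 was called. TJP3 differed most (PANC1 minus MiaPaCa2 -3.84 ± 0.45, adjusted p = 3.2e-04), since it rose in MiaPaCa2, while in PANC1 it was at 0.752 and 0.688 CPM in the controls and 0.162 and 0.284 CPM after gemcitabine. The last 2 values are 3 and 6 counts. FN1 was at 1.96 and 1.60 CPM in the PANC1 controls and 2.16 and 2.27 CPM after gemcitabine, where MiaPaCa2 rose (difference -2.53 ± 0.46, adjusted p = 0.00402). JUP went from 382 and 267 CPM to 186 and 159 CPM in PANC1 (-0.83 ± 0.19, adjusted p = 0.0346) and rose in MiaPaCa2, so it was called in opposite directions (difference -2.09 ± 0.33, adjusted p = 0.00193). These 3 differences passed with each of the 8 libraries left out in turn, but the fall of JUP within PANC1 did not pass without control replicate 1 (-0.64, adjusted p = 0.0791) or without gemcitabine replicate 1 (-0.94, adjusted p = 0.142) or 2 (-0.72, adjusted p = 0.25).

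SNAI2 was at 0.251 and 0.125 CPM (5 and 4 counts) in the PANC1 controls and at 0.918 and 0.899 CPM (17 and 19 counts) after gemcitabine. In MiaPaCa2 it was at 2.55 and 1.91 CPM and then 3.32 and 2.33 CPM, where the groups overlapped (difference 1.99 ± 0.55, adjusted p = 0.0296). SNAI1 (-0.99 ± 0.26), CLDN1 (0.82 ± 0.20) and TM4SF1 (-0.43 ± 0.10) also passed. When single libraries were left out, CLDN1 (0.72 to 0.94) passed only without PANC1 control replicate 2. SNAI1 (-1.13 to -0.85) was lost without either MiaPaCa2 control, PANC1 control replicate 1, MiaPaCa2 gemcitabine replicate 1 or PANC1 gemcitabine replicate 2. SNAI2 (1.43 to 2.44) was lost without MiaPaCa2 control replicate 1, PANC1 control replicate 2, MiaPaCa2 gemcitabine replicate 2 or either PANC1 gemcitabine library. TM4SF1 (-0.51 to -0.35) was lost without either MiaPaCa2 control, MiaPaCa2 gemcitabine replicate 2 or PANC1 gemcitabine replicate 1. KRT19, KRT80, VIM and GRHL1, called in the same direction in both lines, showed no difference that passed (0.46 ± 0.28, 0.09 ± 0.20, -0.04 ± 0.10 and 0.09 ± 0.30), but after GC correction those of KRT19 (0.88) and KRT80 (0.42) did.

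**Figure D2:**
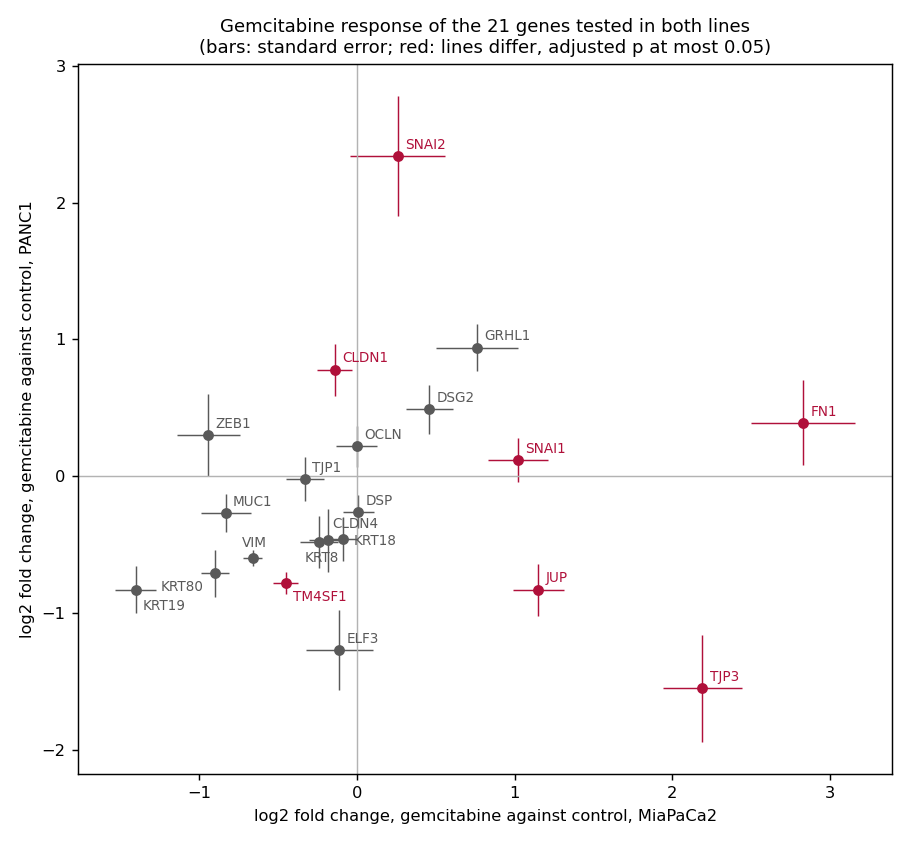
Log2 fold change under gemcitabine in MiaPaCa2 (horizontal) and PANC1 (vertical) for the 21 genes tested in both lines, with standard errors as bars and genes whose responses differed between the lines in red. JUP and TJP3 lie at the lower right, with 1.15 and 2.19 in MiaPaCa2 and -0.83 and -1.55 in PANC1, and KRT19, KRT80 and VIM lie at the lower left.

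Genistein alone changed few members in MiaPaCa2. MUC1 and EHF fell and KRT18 rose, 3 of the 22 tested beside 8.31% of all genes (4.18% higher and 4.13% lower). MUC1 went from 10.2 and 11.7 CPM to 3.95 and 4.16 CPM (-1.42 ± 0.18, adjusted p = 0.001). EHF went from 130 and 123 CPM to 84.2 and 96.9 CPM (-0.49 ± 0.11, adjusted p = 0.0145), and KRT18 from 300 and 334 CPM to 445 and 410 CPM (0.42 ± 0.10, adjusted p = 0.0182). The groups did not overlap in any of the 3. MUC1 was called with each library left out, while EHF and KRT18 were called in 1 of 4 such fits, the one without genistein replicate 2, and fell below the fold threshold after GC correction (-0.38 and 0.32). EHF lost its call without control replicate 1 (-0.45), control replicate 2 (-0.53) or genistein replicate 1 (-0.38), and KRT18 without the same libraries (0.34, 0.49 and 0.38). After GC correction 5 members were called, MUC1, CLDN4 and DSP lower and GRHL1 and JUP higher, beside 10.5% of all genes.

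In PANC1 no member of 35 was called under genistein by limma-voom or by edgeR's quasi-likelihood test, beside 0.0591% of all genes by limma-voom. By limma-voom, 13 members had an unadjusted p below 0.05. The Wald test of DESeq2 called 4, all lower (KRT7, CDH3, MUC1 and TM4SF1). No share of all genes is given here by unadjusted p or by DESeq2, so these counts are not read as particular to the members. After GC correction 8 were called beside 7.69% of all genes, KRT7, CDH3, CDH1, TM4SF1, MUC1 and KRT8 lower and GRHL1 and SPINT1 higher. MUC1 changed by -0.83 ± 0.15 (adjusted p = 0.101) as counted and by -0.62 (adjusted p = 0.00364) after GC correction. CDH1 stood at 15.2 and 12.9 CPM after genistein, below both controls (-0.60 ± 0.17, adjusted p = 0.149), while its FPKM were 12.4 and 8.80 against 13.2 and 8.84 in the controls. The values of MUC1 and CDH1 in PANC1 are given here by a choice made after they were seen.

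The response to genistein was not called different between the lines for any member by limma-voom, edgeR or DESeq2, beside 0.0336% of all genes. By unadjusted p below 0.05 the counts were 6, 8 and 6, for which no share of all genes is given here. After GC correction 4 passed beside 2.73% of all genes, MUC1 and KRT80 with a positive difference (PANC1 minus MiaPaCa2) and TM4SF1 and VIM with a negative one.

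**Figure D3:**
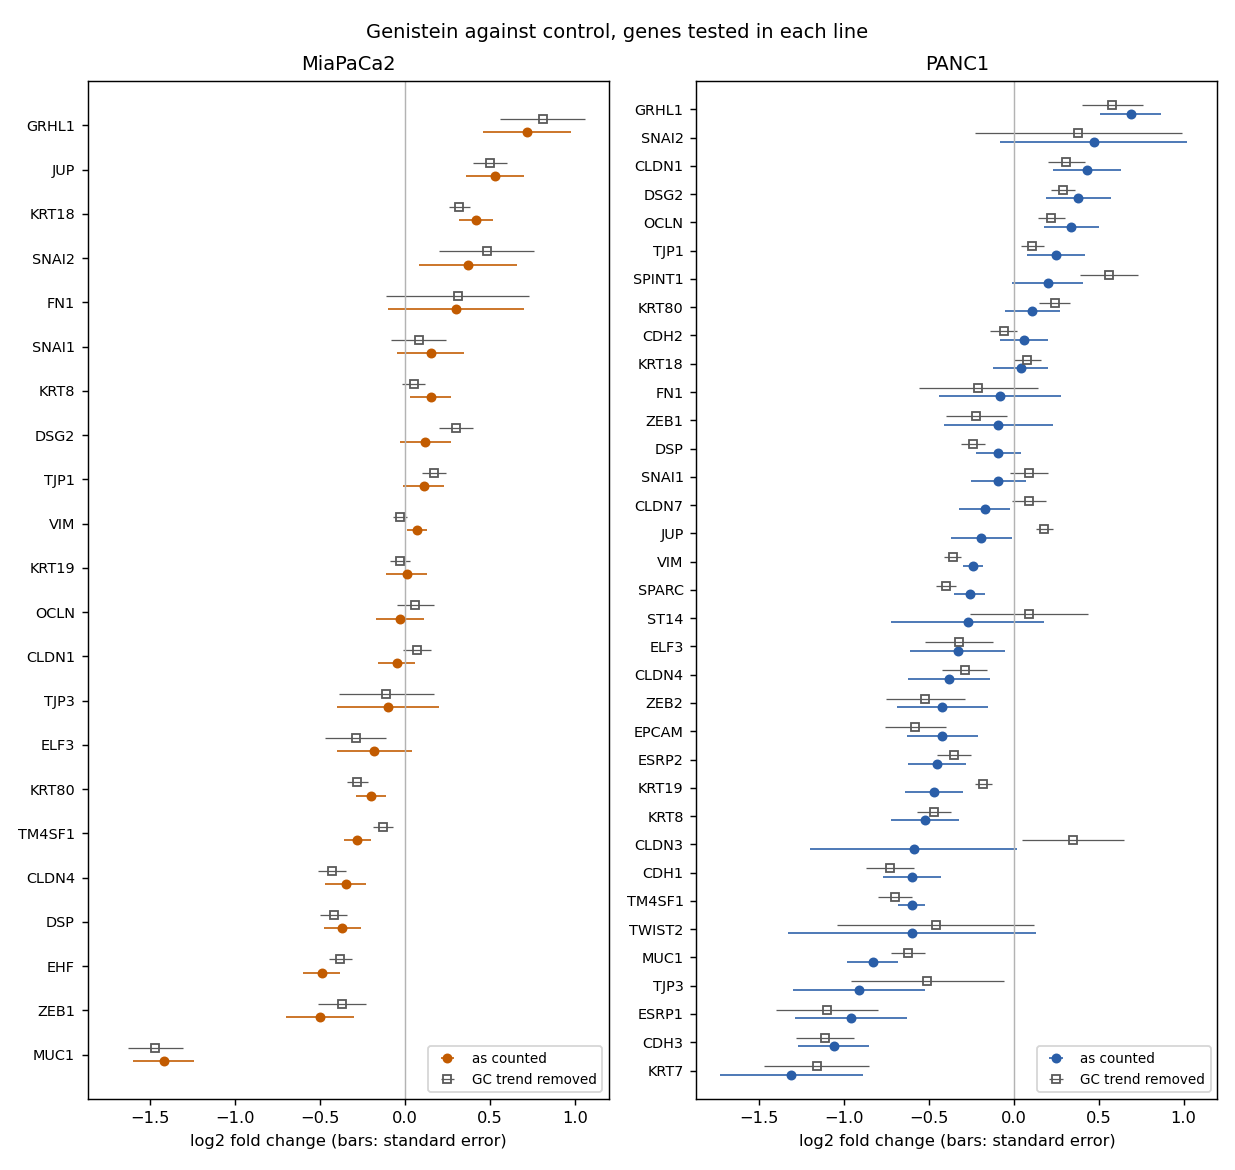
Log2 fold change under genistein for every gene tested in MiaPaCa2 (left) and PANC1 (right), as counted (filled circles) and after removal of each library's GC trend (open squares), with standard errors as bars. MUC1 lies lowest in MiaPaCa2 at -1.42 as counted, and KRT7 lowest in PANC1 at -1.31.

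Co-treatment was compared with gemcitabine alone to see what genistein added. In MiaPaCa2 6 of 22 members were called, SNAI2, FN1, GRHL1 and JUP higher and EHF and CLDN4 lower, beside 5.88% of all genes (4.05% higher and 1.83% lower). FN1 went from 4.90 and 4.91 CPM with gemcitabine to 10.7 and 10.5 CPM with both drugs (1.11 ± 0.17, adjusted p = 0.00321), and SNAI2, a repressor related to SNAI1, from 3.32 and 2.33 CPM to 7.67 and 5.93 CPM (1.25 ± 0.24, adjusted p = 0.00982). GRHL1 went from 4.71 and 4.53 CPM to 11.4 and 8.50 CPM (1.07 ± 0.21, adjusted p = 0.00952), and JUP from 54.4 and 49.0 CPM to 68.9 and 90.7 CPM (0.61 ± 0.14, adjusted p = 0.023). EHF went from 70.5 and 65.5 CPM to 45.3 and 37.6 CPM (-0.73 ± 0.12, adjusted p = 0.0049), and claudin 4 from 60.9 and 51.7 CPM to 33.0 and 39.9 CPM (-0.63 ± 0.13, adjusted p = 0.0103). No group overlapped in these 6. Without gemcitabine replicate 1 no member was called, and without replicate 2 only CLDN4 was. The adjusted p of the calls lost in these fits were 0.0517 to 0.195, with their directions kept. JUP also lost its call without co-treatment replicate 2 (0.44). After GC correction of all libraries 8 members were called, the same 6 and also MUC1 and KRT80, both lower. No share of all genes is given here for that fit. The mean of MUC1 was 6.32 CPM with gemcitabine and 4.12 CPM with both drugs.

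In PANC1 no member of 35 was called between co-treatment and gemcitabine alone by limma-voom or edgeR, beside 0.0177% of all genes by limma-voom. By unadjusted p below 0.05 the counts were 5 and 7. DESeq2 called MUC1 and TM4SF1, both lower. No share of all genes is given here by unadjusted p or by DESeq2, so these counts are not read as particular to the members. After GC correction 6 were called beside 7.46% of all genes, MUC1, TM4SF1, VIM and KRT19 lower and CLDN1 and KRT80 higher. MUC1 changed by -0.91 ± 0.15 (adjusted p = 0.111) and TM4SF1 by -0.80 ± 0.09 (adjusted p = 0.0745) as counted.

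**Figure D4:**
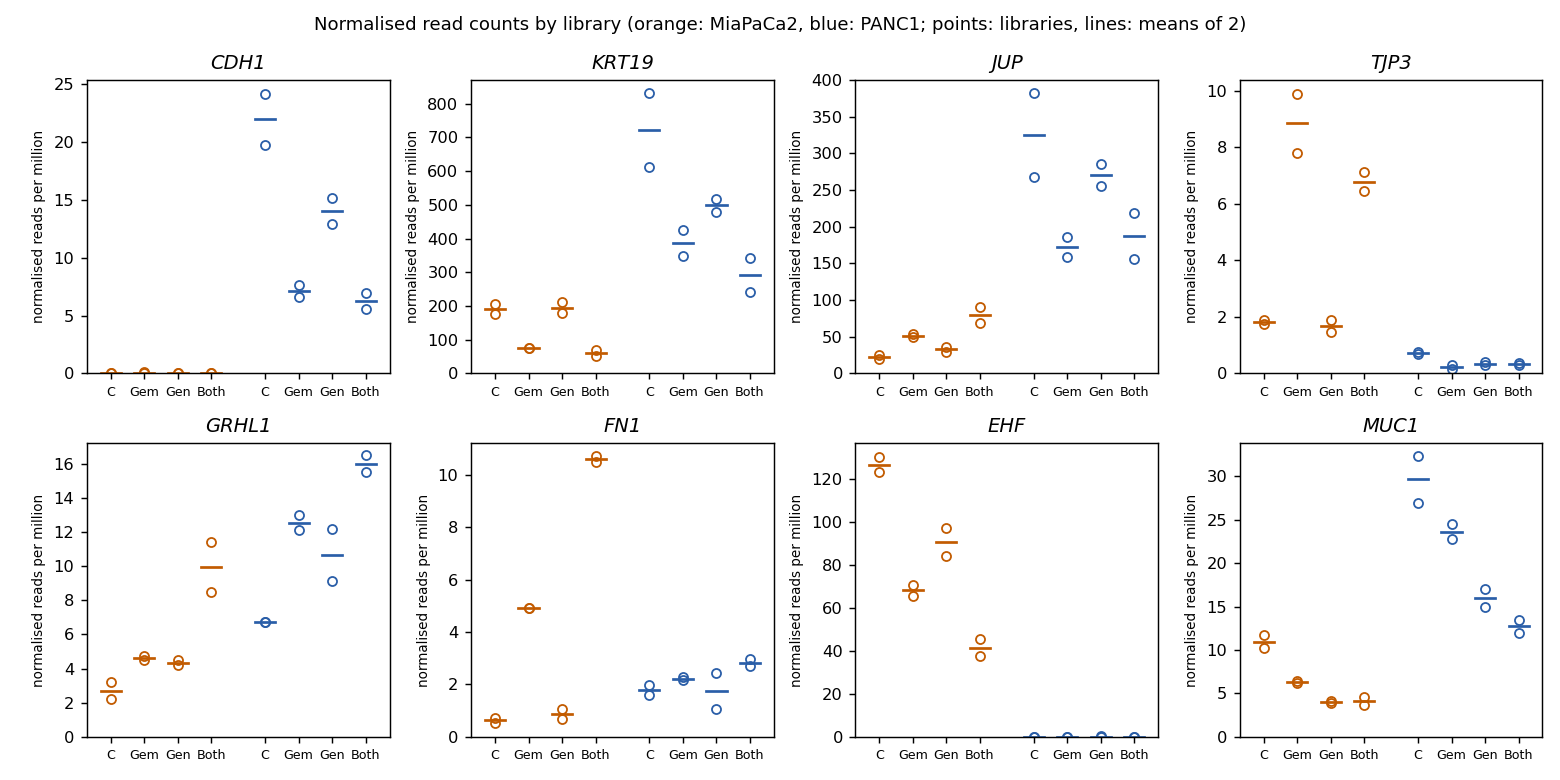
Normalised read level (CPM) of 8 genes in each library (open points, with the mean of 2 as a bar), for control (C), gemcitabine (Gem), genistein (Gen) and both drugs, with MiaPaCa2 in orange at the left and PANC1 in blue at the right of each panel; each axis starts at 0. CDH1 is at or near 0 in MiaPaCa2, EHF is at or near 0 in PANC1, and FN1 reaches 10.7 and 10.5 in the co-treated MiaPaCa2 libraries.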

How the data were processed

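Poly-A RNA libraries of MiaPaCa2 and PANC1 (16 libraries, groups from the sample labels) were sequenced as single reads by the authors, mapped to GRCh37 with TopHat2 2.0.4, cleared of multiply aligned reads with Picard 1.29 and counted per gene with HTSeq 0.6.1. The authors deposited raw counts per gene, and FPKM that they calculated by the authors with Cufflinks 2.1.1. The isoform FPKM table was not used here. Neither the release of the annotation nor whether counting used strand is given in the sources used here, so a gene and an overlapping antisense gene may share reads.

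Counts were normalised with TMM (edgeR 4.0.16), filtered with filterByExpr and fitted by limma-voom in limma 3.58.1 under R 4.3.3, with 1 model for the 8 libraries of a line (16064 genes in MiaPaCa2, 16909 in PANC1) and 1 model for all 16 libraries (17863 genes) for comparisons between lines. Fold changes within a line come from the first models and differences between lines from the last. P-values were adjusted by Benjamini-Hochberg over all genes tested. Differences in response were judged by adjusted p alone. The members and lists were chosen with earlier results of these data known. Values in every library are given for called members of largest change (up to 6 in a drug comparison and 4 in a difference between lines), for the called members with the 6 largest and 6 smallest differences between lines, and there for CDH1, CDH2, EPCAM, VIM, ZEB1, KRT19, MUC1 and TM4SF1 between lines. For genes with several FPKM entries (CDH3) the highest was used. The GC correction removed each library's loess trend (span 0.3) of log2 CPM on exonic GC content from GENCODE v44 lifted to GRCh37, which may not be the authors' release. Alternatives comprised edgeR's quasi-likelihood fit, DESeq2 1.42.0, other scalings, no filter on low counts, limma-trend on log2(FPKM + 1), adjusted p alone, GC correction, the replicate number as a block and each library left out. The fits were first tested on simulated data in which 200 genes had known fold changes. Library totals set the precision, and the variance of a gene, with 2 libraries in a group, borrows from that of all genes. No libraries agreed within sampling noise. Chi-square per degree of freedom between replicates was 35.2 in PANC1 control and 21.6 in PANC1 co-treatment. It lay between 2.86 and 11.1 in the other groups. A lack of calls in PANC1 is therefore not read as a difference between the lines.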

Additional observations from a re-analysis of the deposited data

Results flagged for a closer look

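For 7 of 36 members tested, beside 15.3% of all genes, the gemcitabine response differed between the lines by the interaction term of limma-voom (PANC1 minus MiaPaCa2, log2 scale). The differences were -3.84 for TJP3, -2.53 for FN1, -2.09 for JUP, -0.99 for SNAI1 and -0.43 for TM4SF1, and 1.99 for SNAI2 and 0.82 for CLDN1. TJP3 and SNAI2 are both at few counts in PANC1. Limma-trend on log2(FPKM + 1) did not call most of the 7. Of the 7, JUP was called in both lines with opposite signs, a call that was lost within PANC1 in 3 of 4 fits that left out a library, and TM4SF1 was called lower in both. Over 8 fits that each left out a library, the difference was lost in 4 for TM4SF1, 5 for SNAI1, 5 for SNAI2 and 7 for CLDN1, and in none for TJP3, FN1 and JUP.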

How the results depend on the processing

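Of 69 calls of a member in a comparison, 38 held under every alternative tallied by member, and no value changed sign in those. The tally covered edgeR, library size alone, GC correction, the block, the block with GC correction, and each library left out. DESeq2, its size factors, no filter on low counts and limma-trend were not in it. Limma-trend gave fewer calls in several comparisons, as listed below. edgeR kept 69, GC correction 66 and library size alone 64, the 5 lost there being TM4SF1 (-0.34) for gemcitabine in MiaPaCa2, ESRP2 (-0.60) and KRT80 (-0.60) for gemcitabine in PANC1, KRT18 (0.38) for genistein in MiaPaCa2 and TM4SF1 (-0.33) for the difference under gemcitabine. Library size alone moved the median of all genes by 0.107 (gemcitabine, MiaPaCa2), 0.111 (gemcitabine, PANC1) and 0.101 (difference between the lines), and the changes reported keep their direction under it. The cause of the shifts in the counts below was not tested.

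Counts of called members shifted as follows. For gemcitabine in PANC1 (13), limma-trend gave 5 and leaving out 1 library 1 to 16. For genistein in MiaPaCa2 (3), limma-trend gave 0, GC correction 5, adjusted p alone 5 and leaving out 1 library 1 to 4. For genistein in PANC1 (0), DESeq2 gave 4 and GC correction 8. For co-treatment against gemcitabine, limma-trend gave 1 in MiaPaCa2 (6), with 0 to 9 on leaving out 1 library, and in PANC1 (0) DESeq2 gave 2 and GC correction 6. For the difference between lines under gemcitabine (7), limma-trend gave 4, of which 1 was shared, GC correction 15 and leaving out 1 library 3 to 9. For that under genistein (0), limma-trend gave 1 and GC correction 4. GC slopes ran from -0.23 to 0.29 log2 per 10 points of GC.

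The replicate numbers I and II share only a number, and differences between same-numbered libraries correlated at -0.299 to 0.155 between MiaPaCa2 groups and at -0.569 to 0.331 between PANC1 groups. With the replicate block, gemcitabine in PANC1 gave 6, without ZEB2, ESRP2, KRT19, KRT80, CLDN1, JUP and ELF3 (adjusted p = 0.0512 to 0.106), and the count in every other comparison was that of the fit without it. The block with GC correction gave 5 for genistein in MiaPaCa2, 6 for genistein in PANC1, 6 for co-treatment against gemcitabine in PANC1, 15 for the difference under gemcitabine and 3 for that under genistein. In 4-library fits of co-treatment against gemcitabine, chosen after the data were seen, same-numbered pairs gave 6 in MiaPaCa2 and 1 in PANC1, and crossed pairs 7 and 6.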

Other observations

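Other genes of the same programs, from lists of 30 further epithelial, 20 further mesenchymal and 8 adherens junction genes, were read by the same criteria. In PANC1 against MiaPaCa2, 13 of 20 tested epithelial genes were higher and 2 lower, 8 of 16 mesenchymal genes were higher and 4 lower, and 3 of 8 adherens junction genes were higher and 1 lower, beside 27.9% of all genes higher and 24.3% lower. These counts carry little weight, since 4 of the called epithelial genes (AP1M2, GRHL3, PPL and TMC4) and 3 of the mesenchymal ones (FOXC2, PDGFRB and THY1) had at most 3 counts in each MiaPaCa2 control and could pass the filter through PANC1 alone. In the PANC1 controls, the plakin PPL was at a mean of 156 CPM and THY1, a surface glycoprotein of fibroblasts, at 48.4 CPM. The collagen receptor DDR2 was at a mean of 123 CPM in MiaPaCa2 and 0.704 CPM in PANC1 (-7.43 ± 0.28), and NECTIN3, an adhesion molecule of adherens junctions, was also lower in PANC1 (-3.60 ± 0.27).

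Under gemcitabine in MiaPaCa2, 5 of 16 tested epithelial genes rose and 1 fell (PKP3, -0.92 ± 0.16), and 4 of 10 mesenchymal genes rose and 2 fell, beside 15.0% of all genes higher and 14.6% lower. The largest rises were in KLF5, an epithelial zinc-finger factor (2.46 ± 0.28), GNG11 (1.43 ± 0.25), fibrillin-1 (FBN1, 1.40 ± 0.13) and the tight junction gene LSR (1.31 ± 0.24). In PANC1, 1 of 19 epithelial genes rose (KLF5, 1.32 ± 0.28) and 3 fell, and 4 of 17 mesenchymal genes fell, led by TAGLN (-1.15 ± 0.25), beside 4.49% of all genes higher and 3.03% lower. GNG11 was called in opposite directions in the lines, in PANC1 near both thresholds (-0.46 ± 0.11, adjusted p = 0.0481). Its response differed (PANC1 minus MiaPaCa2 -1.99 ± 0.25, adjusted p = 4.4e-04). Fits that leave out a library are not given here for these lists. Genistein alone in MiaPaCa2 raised 2 of 16 epithelial genes (KLF5, 1.40 ± 0.30, and CGN, 0.63 ± 0.17) and lowered 1 (PKP3, -0.72 ± 0.16), and of 10 mesenchymal genes it lowered 1 (DDR2, -0.45 ± 0.12), beside 8.31% of all genes.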
